A study of Bos taurus with 8 samples.

Results

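The liver X receptors and the genes through which they govern sterol export were followed in bovine granulosa cells given non-esterified fatty acids. The set held 9 genes: the receptors NR1H3 (LXR alpha) and NR1H2 (LXR beta) and the targets ABCA1, ABCG1, APOE, PLTP, MYLIP, LPCAT3 and SMPDL3A. A probe set was taken for a gene where the platform annotation gave it that symbol and no other. Each of the 9 genes had 1 such probe set, so all 9 were measured, of 18010 genes in all, and no choice between probe sets arose. Primary granulosa cells, the somatic cells around the oocyte, were cultured without serum in alpha-MEM with FSH, IGF-1 and androstenedione, which both groups shared. Fresh medium with bovine serum albumin (BSA, 4 arrays) or with mixed non-esterified fatty acids (NEFA, 4 arrays) was given on day 2 and day 4, and the cells were analysed on day 6. The labels name the breed, age and number of animals for neither group, and the sources used here do not give the dose and composition of the mix. What sets the replicates apart (animal, pool or dish) is not labelled either, so a p-value rests on the spread among these arrays alone, and that spread may be technical.

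Liver X receptors are nuclear receptors that bind oxysterols, the oxidised forms of cholesterol, and act on DNA as heterodimers with retinoid X receptors. When sterol is plentiful they raise the transcription of pumps that export cholesterol, of proteins that accept and remodel it outside the cell, of a ligase that removes lipoprotein receptors, and of enzymes of lipid synthesis and membrane remodelling. Granulosa cells use cholesterol as the substrate of progesterone synthesis. Work in other mammalian cells has shown that polyunsaturated fatty acids can oppose activation of these receptors, and the comparison here asks in which direction each target differed in cells kept with fatty acids.

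The targets did not move together. With NEFA, ABCA1, MYLIP and LPCAT3 fell, to 46.7%, 58.4% and 76.4% of their BSA levels, while APOE rose 1.29-fold. ABCG1, PLTP and SMPDL3A did not pass the test, nor did either receptor. Of the 9 genes 3 were thus lower, where 1.35% of all genes tested were called lower, and 1 was higher, where 0.999% of all genes were called higher (limma, Benjamini-Hochberg adjustment over all probe sets, threshold 0.05). The median change of the 9 genes was -0.07 on the log2 scale, and that of all genes was 0.005. The genes were chosen with earlier results of these arrays known, so their share of calls is a description. In RNA from a whole culture, fewer cells that express a gene and less of its RNA per cell cannot be told apart.

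**Figure D1:**
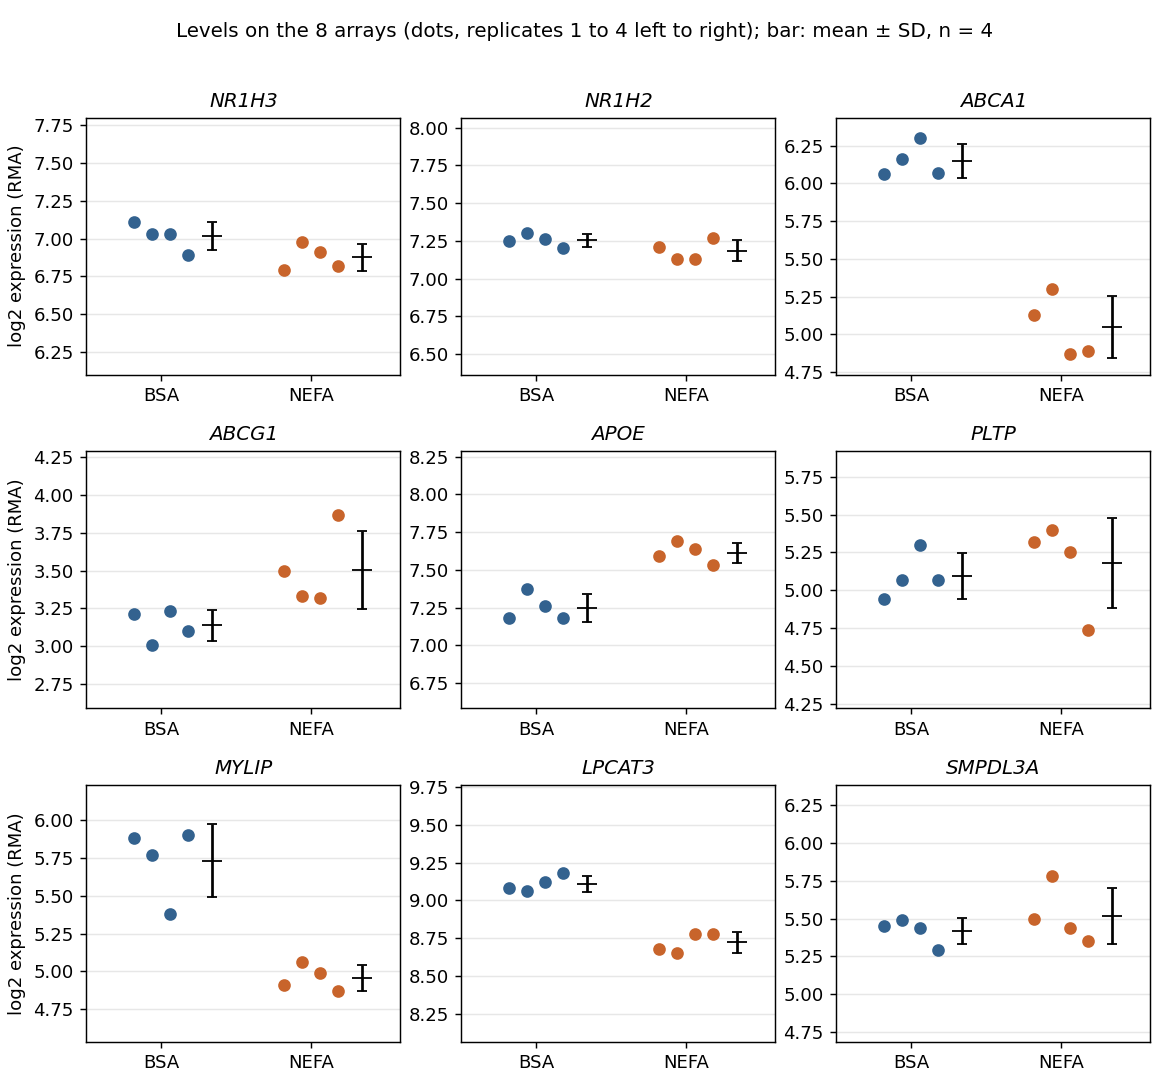
Log2 expression values (vertical axes, each spanning the same number of log2 units) of the 9 LXR genes on the 4 BSA and 4 NEFA arrays, with the mean ± SD of each group beside the dots. The groups are clear of each other for ABCA1, MYLIP, LPCAT3, APOE and, by 0.09, for ABCG1, and they overlap for NR1H3, NR1H2, PLTP and SMPDL3A.

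Both receptors were measured well within the range of the arrays and differed little between the groups. NR1H3, the receptor that is prominent in liver, fat and macrophages, read 7.11, 7.03, 7.03 and 6.89 on BSA 1 to 4 and 6.79, 6.98, 6.91 and 6.82 on NEFA 1 to 4 (log2 levels). The groups overlapped, since BSA 4 was lower than NEFA 2 and NEFA 3. Its change was -0.14 (SE 0.07, 95% interval -0.29 to 0.01; limma, adjusted p = 0.36). NR1H2, which is expressed in nearly all tissues, read 7.25, 7.30, 7.26 and 7.20 with BSA and 7.21, 7.13, 7.13 and 7.27 with NEFA. NEFA 4 exceeded 3 of the BSA arrays, and the change was -0.07 (SE 0.05, 95% interval -0.19 to 0.06; limma, adjusted p = 0.59). The intervals bound a fall in mRNA at 1.23-fold for NR1H3 and 1.14-fold for NR1H2. They say nothing of how active the receptor proteins were.

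ABCA1, the pump that loads cholesterol and phospholipid onto lipid-poor apolipoprotein A-I, showed the largest change of the 9 genes. Its log2 level was 6.06, 6.16, 6.30 and 6.07 on BSA 1 to 4 and 5.13, 5.30, 4.87 and 4.89 on NEFA 1 to 4. The lowest BSA array lay 0.76 above the highest NEFA array, a gap wider than the range within either group (0.24 with BSA, 0.43 with NEFA). The fall was 2.14-fold, with a 95% interval of 1.81-fold to 2.54-fold (log2 change -1.10, SE 0.11; limma, adjusted p = 0.0024). The call held with each of the 8 arrays left out in turn, with changes from -1.18 to -1.04.

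ABCG1, the partner pump that delivers cholesterol to HDL particles already formed, ran the other way but was dim. It read 3.21, 3.01, 3.23 and 3.10 with BSA and 3.50, 3.33, 3.32 and 3.87 with NEFA. Every NEFA array was above every BSA array, by as little as 0.09, and NEFA 4 stood highest. The change of 0.37 did not pass (SE 0.12, 95% interval 0.09 to 0.65; limma, adjusted p = 0.19), and it was 0.25 without NEFA 4 and up to 0.43 without another array. Its mean level of 3.32 lay below the median of all probe sets, 4.81, and over the dimmest 33.3% of them the median change was 0.03, against -0.02 over the brightest 33.3%. A fall of ABCG1 like that of ABCA1 lies outside its interval. At such a level, however, RMA values understate folds and a fall may hardly show, so the interval sets no firm bound.

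Of the extracellular partners of sterol transport, APOE rose and PLTP did not pass. APOE, an apolipoprotein that accepts exported cholesterol and binds lipoprotein receptors, read 7.18, 7.37, 7.26 and 7.18 with BSA and 7.59, 7.69, 7.64 and 7.53 with NEFA. The groups did not overlap, with a gap of 0.16, and both were tight (7.25 ± 0.09 and 7.61 ± 0.07, SD, n = 4). The rise was 1.29-fold, with a 95% interval of 1.16-fold to 1.42-fold (limma, adjusted p = 0.028). It was close to the threshold: the adjusted p was 0.057 with each array centred on its median, and it ran from 0.073 to 0.087 without BSA 1, 3 or 4 or NEFA 1, 2 or 3, at changes of 0.34 to 0.37. APOE stayed past the threshold without BSA 2 and without NEFA 4.

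PLTP, which transfers phospholipid between lipoproteins, read 4.94, 5.07, 5.30 and 5.07 with BSA and 5.32, 5.40, 5.25 and 4.74 with NEFA. NEFA 4 was the lowest of all 8 arrays and NEFA 2 the highest, so the NEFA group alone spanned 0.66. The change was 0.08 (SE 0.15, 95% interval -0.25 to 0.42; limma, adjusted p = 0.83), and it was 0.23 without NEFA 4. The arrays thus leave a change of up to 1.33-fold upward or 1.19-fold downward within the interval.

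MYLIP, also called IDOL, is the ubiquitin ligase that sends lipoprotein receptors to the lysosome. Its log2 level was 5.88, 5.77, 5.38 and 5.90 on BSA 1 to 4 and 4.91, 5.06, 4.99 and 4.87 on NEFA 1 to 4. BSA 3 was low for its group, and the BSA range of 0.52 exceeded the NEFA range of 0.19, yet the groups stayed 0.32 apart. The fall was 1.71-fold (log2 change -0.78, SE 0.12, 95% interval -1.04 to -0.51; limma, adjusted p = 0.016). Without BSA 2 or without NEFA 1 the adjusted p was 0.056 and 0.055, and without BSA 3 the change was -0.89.

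LPCAT3 places polyunsaturated fatty acids into membrane phospholipids. It varied least between replicates among the targets that fell, at 9.08, 9.06, 9.12 and 9.18 with BSA and 8.68, 8.65, 8.78 and 8.78 with NEFA. The groups lay 0.28 apart while neither spanned more than 0.13. The fall was 1.31-fold, with a 95% interval of 1.20-fold to 1.43-fold (limma, adjusted p = 0.013), and the adjusted p was 0.0503 without NEFA 1. SMPDL3A, a secreted phosphodiesterase known as a sterol-induced LXR target in human macrophages, read 5.45, 5.49, 5.44 and 5.29 with BSA and 5.50, 5.78, 5.44 and 5.35 with NEFA. Its groups overlapped, NEFA 2 stood highest, and the change was 0.10 (SE 0.10, 95% interval -0.12 to 0.32; limma, adjusted p = 0.66), or 0.01 without NEFA 2.

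**Figure D2:**
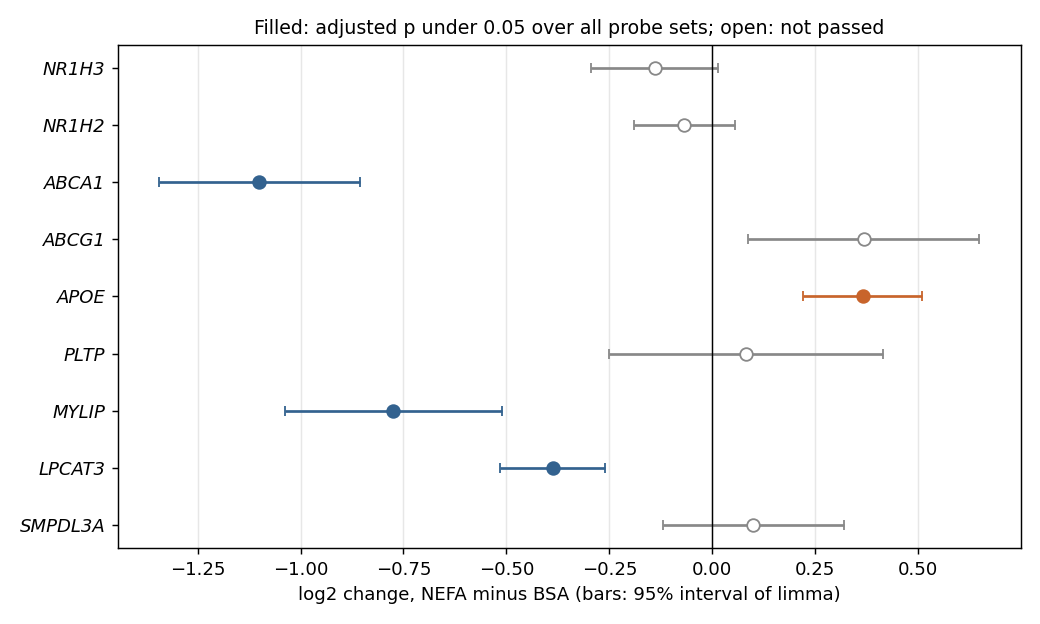
Log2 change, NEFA minus BSA (horizontal axis), of each LXR gene with its 95% interval from limma; filled dots passed an adjusted p of 0.05. ABCA1, MYLIP and LPCAT3 lie below 0 with their whole intervals, APOE above it, and ABCG1 has an interval above 0 without passing the adjusted threshold.

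Because the deposited values were scaled between arrays, the opposite moves of ABCA1 and APOE were also compared inside each array. There an offset common to all probe sets of an array cancels, but a shift that differs with brightness does not. The log2 difference of ABCA1 minus APOE was -1.12, -1.21, -0.96 and -1.11 on BSA 1 to 4 and -2.46, -2.39, -2.77 and -2.64 on NEFA 1 to 4. These differences set 2 probe sets of unlike brightness against each other, so only their shift between groups has a meaning. That shift was -1.47, by construction the change of ABCA1 less that of APOE, so it adds no separate evidence. No test of it is given, since both genes separated the groups in opposite directions and their difference then had to separate them too. It ran from -1.52 to -1.40 with each array left out in turn. Of the 9 genes 3 had every NEFA array below every BSA array, where 7.20% of all genes did, and 2 (APOE and ABCG1) had every NEFA array above, where 5.19% did.

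The NEFA arrays did not order the targets alike. NEFA 2 held the highest NEFA value of ABCA1, APOE, PLTP, MYLIP, SMPDL3A and NR1H3. NEFA 4 held the lowest NEFA value of APOE, PLTP, MYLIP and SMPDL3A but the highest of ABCG1 and NR1H2. ABCA1 was lowest on NEFA 3 and NEFA 4, at 4.87 and 4.89, where LPCAT3 was at its NEFA maximum of 8.78 on both.

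Likeness to ABCA1 was measured over the 8 arrays as the root mean square difference between log2 values, each gene first centred on its own mean. The 5 genes with the smallest difference were MID1IP1 (0.13), FGG (0.15), RASAL1 (0.17), FASN (0.17) and RNF145 (0.18). MID1IP1 activates acetyl-CoA carboxylase, FGG is the gamma chain of fibrinogen, RASAL1 is a GTPase activator for Ras, FASN is the fatty acid synthase, and RNF145 is a ubiquitin ligase of the endoplasmic reticulum. RNF145 read 8.61, 8.65, 8.43 and 8.48 with BSA and 7.65, 7.71, 7.58 and 7.62 with NEFA, a log2 change of -0.90. Among the other LXR genes MYLIP came nearest, at 0.29 and rank 39 of 18010, and LPCAT3 followed at 0.40 and rank 228. ABCG1 and APOE were far from it, at 0.78 and 0.74. The measure rewards a fall of similar size, so it largely restates the change between groups.

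**Figure D3:**
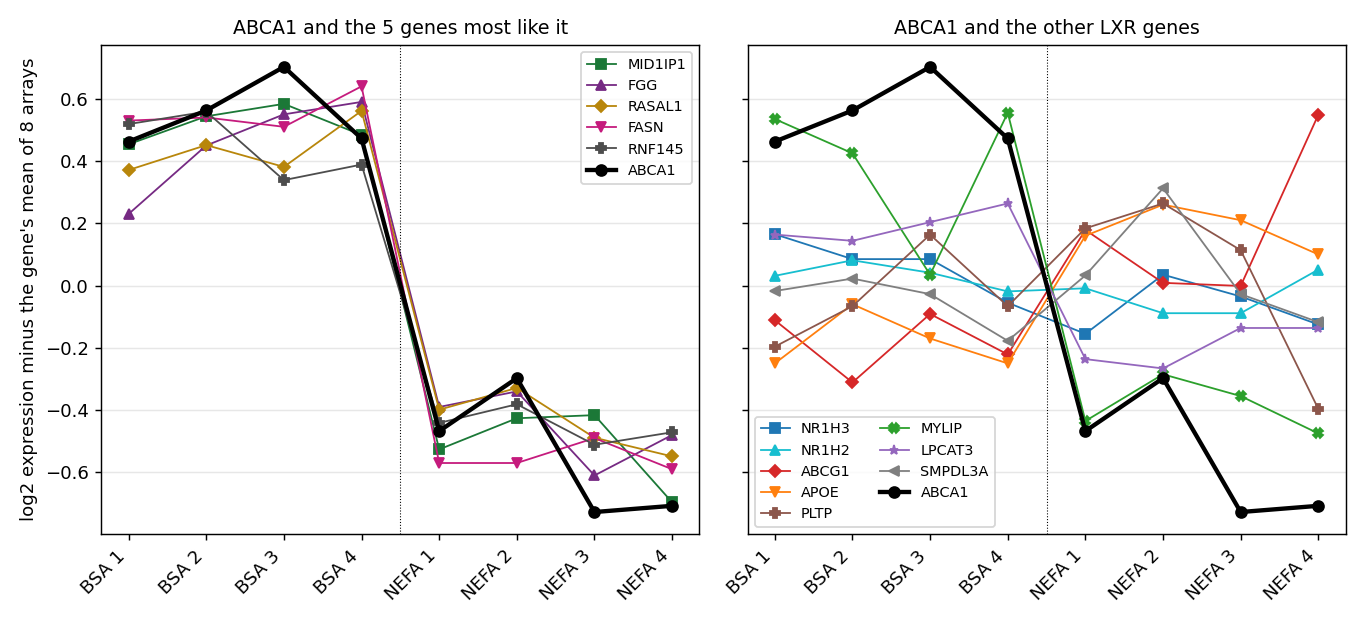
Log2 expression minus each gene's mean of 8 arrays (vertical axis) on the 4 BSA and 4 NEFA arrays; lines only join the values of a gene. Left, the 5 genes nearest to ABCA1 drop with it between the groups; right, MYLIP and LPCAT3 drop, APOE and ABCG1 sit higher on every NEFA array, and the receptors stay near 0.

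The other genes of the pathway were read from 6 lists, of whose 91 genes 79 had a probe set of their own. Their counts are read against all genes tested, of which 1.35% were called lower and 0.999% higher, and of which 8.92% were lower and 7.9% higher at an unadjusted p under 0.05. Of the 14 measured genes in the list of other LXR targets, 3 fell, none rose and 11 did not pass. At an unadjusted p under 0.05, 7 of the 14 were lower and 1 was higher. The falls were those of FASN, from 9.10 ± 0.06 to 7.99 ± 0.04 (SD, n = 4), of SREBF1, the transcription factor that drives fatty acid synthesis, from 5.95 ± 0.08 to 5.09 ± 0.13, and of SCD, the stearoyl-CoA desaturase, from 12.08 ± 0.03 to 11.62 ± 0.04. A second SCD probe set changed by -0.53. The median change of the list was -0.10, against 0.005 over all genes. The targets of sterol excretion in gut and liver, ABCG5 and ABCG8, were dim, and changed by 0.04 and -0.05.

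None of the 12 measured partners and coregulators of LXR passed in limma, 1 of them was lower at an unadjusted p under 0.05, near the share over all genes, and their median change was -0.05. The gene with the smallest p was HDAC3, a histone deacetylase of the corepressor complex, at -0.19 (limma, adjusted p = 0.099). The heterodimer partners RXRA and RXRB changed by -0.08 and 0.01. Of 9 genes that make or inactivate oxysterols none passed in limma either, 1 was lower at an unadjusted p under 0.05, and CYP46A1, which makes 24-hydroxycholesterol, had the smallest p at -0.32 (limma, adjusted p = 0.15). CYP27A1, which makes 27-hydroxycholesterol, changed by -0.09, and CH25H, which makes 25-hydroxycholesterol, by 0.16.

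Of 20 further genes of sterol export, storage and intracellular transport, NPC2 fell and the other 19 missed the threshold, and the median change was -0.05. At an unadjusted p under 0.05, 3 of the 20 were lower and 3 higher. NPC2, which hands cholesterol from the lysosome lumen to NPC1, went from 9.03 ± 0.05 to 8.70 ± 0.07 (limma, adjusted p = 0.025), while NPC1 changed by -0.06. NPC2 lost its call without BSA 2, 3 or 4 and without NEFA 1, 2 or 4. Of 7 lipoprotein receptors and MYLIP partners none passed in limma, with 1 lower at an unadjusted p under 0.05. The MYLIP substrates VLDLR and LRP8 changed by -0.15 and -0.05. The smallest p was that of USP2, a deubiquitinase, at -0.35 (limma, adjusted p = 0.28).

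Among 17 relatives of the 9 genes, 2 fell, 1 rose and 14 missed the threshold, and the median change was -0.03. An unadjusted p under 0.05 was reached by 3 lower and 3 higher genes of the 17. LPCAT1 and MBOAT7, acyltransferases of phospholipid remodelling like LPCAT3, fell by 0.50 and 0.30 on the log2 scale, from 7.16 ± 0.06 to 6.66 ± 0.04 and from 7.54 ± 0.04 to 7.24 ± 0.05. For LPCAT2 and LPCAT4 the changes of -0.17 and -0.08 missed the threshold. The bile acid receptor NR1H4 (FXR), of the same subfamily as the liver X receptors, rose by 0.63, from 7.11 ± 0.14 to 7.74 ± 0.02 (limma, adjusted p = 0.0051). The half-transporter ABCG2 changed by 0.22 and ABCA2, ABCA3 and ABCA5 by -0.03, -0.10 and 0.04, none of which passed. With any array left out, 1 relative rather than 2 was called lower.

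**Figure D4:**
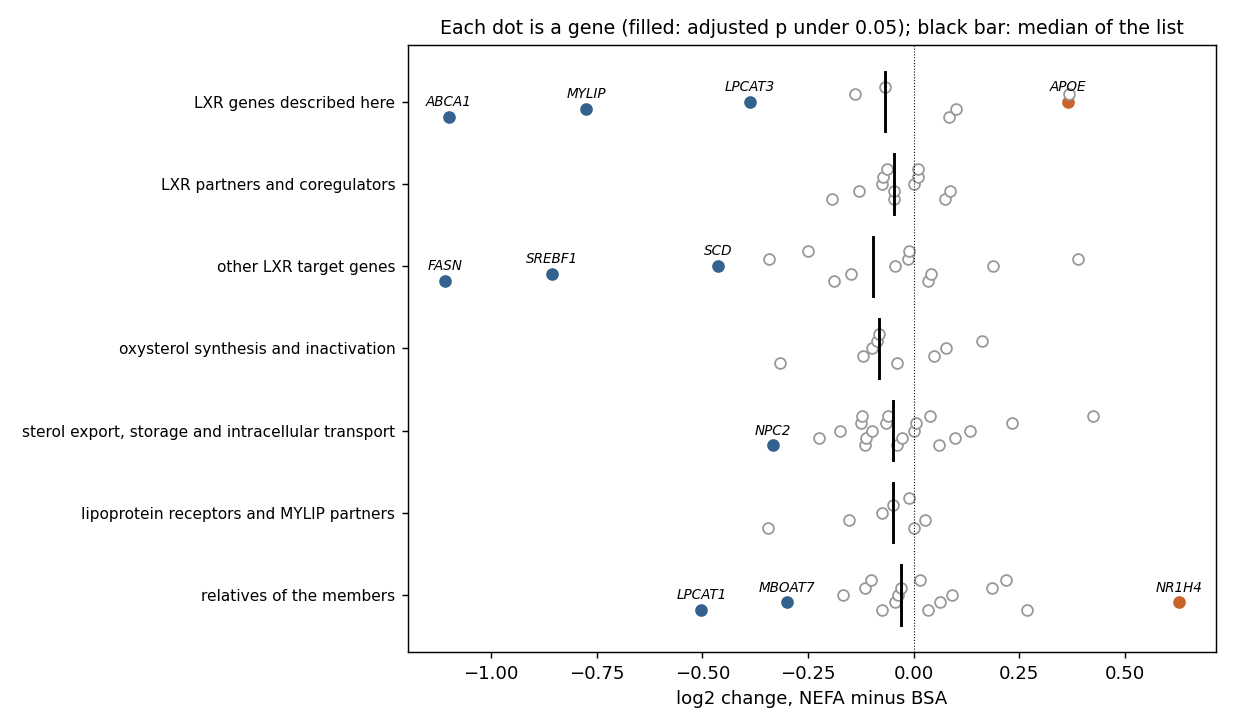
Log2 change, NEFA minus BSA (horizontal axis), of every measured gene in the LXR set and the 6 pathway lists; filled and named dots passed an adjusted p of 0.05, and black bars mark list medians. Named genes other than APOE and NR1H4 lie below 0, and most genes lie within 0.25 of 0.

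The cells carried the markers of their label. All 12 granulosa markers measured, FSHR, CYP19A1 and FOXL2 among them, lay above the median level of all probe sets. HSD17B1 lay only just above it, at 4.83 against 4.81. None of the 12 passed in limma. At an unadjusted p under 0.05, 1 was lower (HSD17B1, at -0.745) and 2 were higher (CYP19A1, at 0.505, and AMHR2, at 0.148). Of 5 theca, 5 endothelial and 5 smooth muscle and fibroblast markers, 2, 1 and 4 lay above that median too. Level alone thus does not set granulosa cells apart from these cell types. Macrophages also express APOE and ABCG1. Of 14 measured macrophage and leukocyte markers none lay above that median and none passed in limma, with 3 higher at an unadjusted p under 0.05. Their mean log2 level ran from 3.19 to 3.31 on the BSA arrays and from 3.32 to 3.48 on the NEFA arrays, with 10 of 14 higher. The changes with the smallest p were those of SPI1 (0.38) and LYZ (0.31). SPI1 was the 1 marker of the 14 with every NEFA array above every BSA array, as were 5.19% of all genes. AIF1 changed by 0.31, and PTPRC, the pan-leukocyte marker, by -0.15. The mean level of 5 theca markers ran from 4.73 to 4.88 with BSA and from 4.99 to 5.14 with NEFA. It was higher for 5 of 5 with none passing in limma (5 at an unadjusted p under 0.05). Over all genes 8.92% were lower and 7.9% higher at that unadjusted p. Of 5 endothelial markers VWF fell by 0.35 on the log2 scale (limma, adjusted p = 0.039) and 4 did not pass, and their mean level ran from 3.52 to 3.80 with BSA and from 3.51 to 3.63 with NEFA. Of 5 smooth muscle and fibroblast markers PDGFRA fell by 0.30 (limma, adjusted p = 0.042) and 4 did not pass, though MYH11, TAGLN and DES were higher by 0.42, 0.37 and 0.34 at an unadjusted p under 0.05. The mean level of that list ran from 6.41 to 6.55 with BSA and from 6.51 to 6.78 with NEFA. No marker was at 0, since RMA values have no true 0, and the part of these shifts in the values of the 9 LXR genes was not tested.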

How the data were processed

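RNA of cultured granulosa cells was measured on 8 expression arrays. The authors deposited RMA results on the log2 scale, per the submitters' processing notes; software, version, probe annotation and genome build are not given there. RMA equalises arrays, so a change shared by all transcripts is not visible, and it understates folds of dim probe sets. Arrays give no read depth, and their number limits the precision. Of 24415 probe sets, 18457 had 1 gene symbol, 688 several and 5270 none in the platform annotation; 17996 symbols were updated or kept by gene ID through a RefSeq table (ARS-UCD2.0). The brightest probe set stood for each of 18010 genes.

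Groups were compared as NEFA minus BSA in R 4.3.3 with limma 3.58.1 (lmFit, eBayes), with Benjamini-Hochberg adjustment over all probe sets and a threshold of 0.05; the script was tested on simulated data. The genes and lists were chosen with earlier results of these data known. Named are the 9 LXR genes, up to 4 called genes of each list by size of change (or that of smallest p), and the 5 genes most like ABCA1; RXRA, RXRB, ABCG5, ABCG8, CYP27A1, CH25H, NPC1, VLDLR, LRP8, LPCAT2, LPCAT4, ABCG2, ABCA2, ABCA3, ABCA5, the marker genes and those under the other observations were chosen after their values were seen. Alternatives were array centring, quantile normalization on top of RMA, a block for the replicate number, dropping the dimmest 33.3% of probe sets, trend and robust eBayes, weighted arrays, averaging a gene's probe sets, no moderation, and leaving out each array. The labels state no pairing, so the numbers were not taken as pairs. Deviations of same-numbered arrays from their group means had correlations of -0.01, 0.05, 0.04 and 0.07. The most correlated NEFA array had the same number for BSA 3 and BSA 4 but not for BSA 1 and BSA 2. Such correlations over all probe sets cannot show that no pairing exists.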

Additional observations from a re-analysis of the deposited data

Results flagged for a closer look

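In each group of 4 arrays, the levels of 57 of the genes named in the text were checked for an array far from the other 3 (Dixon's criterion, a gap above 0.829 of the group's range). Of the 114 groups of values 3 held such an array, and chance gives about 1 in 20. None of the 9 LXR genes was among them. APOA1 was 7.41 on BSA 1 and between 7.15 and 7.17 on the other BSA arrays. ABCA3 was 5.97 on BSA 4 and between 6.13 and 6.15 on the others. MYH11, a smooth muscle marker, was 5.16 on BSA 2 and between 4.77 and 4.82 on the others.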

How the results depend on the processing

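In the 16 alternatives (15 for ABCG1) the 9 genes kept their direction, and ABCA1 kept its call in all of them. The replicate block, trend and robust eBayes, no moderation, leaving out dim probe sets and averaging probe sets do not alter the log2 change of these genes. Under those settings the direction was therefore fixed in advance, and only the call could move. Centring each array on its median shifted the median change of all genes to -0.03 and left APOE at 0.33 (limma, adjusted p = 0.057), so 0 of the 9 were called higher; APOE was higher on 4 of 4 NEFA arrays. With the replicate block, 1 of the 9 was called lower (ABCA1) and 0 higher, with APOE at 0.36 (limma, adjusted p = 0.081), MYLIP at -0.78 (0.086) and LPCAT3 at -0.39 (0.069); 32 genes in all were lower and 45 higher, and 2 pathway list genes passed. The shift of ABCA1 minus APOE was -1.47 with that block as without it, which the balanced design fixes in advance. Trend and robust eBayes called 679 genes lower, 418 higher and 12 pathway list genes; leaving out the dimmest probe sets, which dropped ABCG1, called 475 lower and 315 higher. With each array left out in turn, 1 to 3 of the 9 were called lower, with 1 without NEFA 1 (ABCA1), and 0 to 1 higher, while over all genes 82 to 132 were lower and 72 to 128 higher; APOE ran from 0.34 to 0.41, MYLIP from -0.89 to -0.72 and LPCAT3 from -0.41 to -0.36. The cause of these differences was not tested.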

Other observations

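Some other genes of HDL metabolism had groups that did not overlap without passing the limma threshold. They were chosen after their values were seen. Of the 20 measured genes in their list, 3 had every NEFA array below every BSA array and 3 had every one above. Over all genes these shares were 7.20% and 5.19%. APOA1, the main HDL apolipoprotein and the acceptor for ABCA1, was 7.22 ± 0.13 with BSA and 7.64 ± 0.23 with NEFA (SD, n = 4), higher by 0.42 (limma, adjusted p = 0.12). SCARB1, which takes up cholesterol from HDL, was 10.89 ± 0.02 and 10.66 ± 0.04 (limma, adjusted p = 0.052). ABCG4, a dim relative of ABCG1, was 2.96 ± 0.08 and 3.19 ± 0.07 (limma, adjusted p = 0.10).

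Of the list of other LXR targets, TTC39B, which promotes the turnover of LXR protein in mouse liver, changed by -0.25 and GRAMD1B, a carrier of cholesterol from the plasma membrane, by -0.19, with all NEFA arrays below all BSA arrays. TGM2, a transglutaminase, changed by 0.39 with all NEFA arrays above (limma, adjusted p = 0.11, 0.15 and 0.078 in that order). Of the 14 measured genes in that list, 5 had all NEFA arrays below and 1 had all above, against 7.20% and 5.19% of all genes. SOAT1, which esterifies cholesterol for storage, was 9.10 ± 0.01 with BSA and 9.23 ± 0.06 with NEFA, again without overlap and without passing (limma, adjusted p = 0.25).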
